A study of Oryctolagus cuniculus with 6 samples.

Results

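Macrophages, monocytes and dendritic cells are the phagocytes and antigen-presenting cells of the ocular surface, and 55 genes that mark them or serve their functions were followed in rabbit conjunctiva with dry eye disease (DED). Of these, 42 were measured by at least 1 probe set (the group of probes that reports 1 transcript) whose listed annotation holds that gene symbol alone, among 15587 genes measured in this way and 23364 probe sets on the array. Where a gene had more than 1 such probe set, the one with the highest mean over the 6 arrays was used. The other 13 genes, SLA, CSF1R, FCER1G, FCGR2B, CD33, LILRB4, CD163, FOLR2, MS4A7, CTSL, FLT3, BATF3 and PLD4, had no probe set that met this rule and were not analysed here.

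The data comprise 3 arrays of naive conjunctiva and 3 arrays of conjunctiva from rabbits with DED, taken on day 18. DED was induced by injecting concanavalin A (ConA), a plant lectin that activates T cells, into the periorbital lacrimal glands on days 1, 8 and 14, and the naive rabbits are labelled healthy and normal. All rabbits were adult male Dutch Belted animals whose nictitating membranes had been removed surgically, and the labels describe no vehicle injection in the naive group. Each array was hybridized with pooled RNA, from 3 animals (6 eyes) according to the deposited records, whereas the methods give a smaller pool. The sample is full-thickness conjunctiva with Tenon's capsule, so epithelium, stroma, vessels and blood all contribute to each value, and in such bulk RNA more cells of a type and more RNA per cell cannot be told apart.

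Across all probe sets, Pearson's r was 0.9938 to 0.9947 for pairs of arrays within a group and 0.9883 to 0.9902 for pairs between groups. The median log2 value of an array lay between 6.18 and 6.2, and no array stood apart from its group. Of the markers that define macrophages, CD68, MRC1, AIF1, MSR1 and MPEG1 were measured, at mean log2 values of 6.28 to 8.26 in naive conjunctiva, and of the 5 dendritic cell genes among the 55, ZBTB46 and LAMP3, at 5.67 and 5.57. Levels are log2 values after normalization, differences are log2 fold changes (DED minus naive), and a gene passed the test when its p from limma, adjusted by Benjamini-Hochberg over all probe sets, was under 0.05. For any single gene, an exact permutation of 3 against 3 arrays allows no p smaller than 0.1.

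Mononuclear phagocytes arise from bone marrow or from embryonic precursors and depend on growth factors of the colony-stimulating family. PU.1, encoded by SPI1, and IRF8 direct their development. In tissue they clear debris and microbes through scavenger and Fc receptors, signal through the small adaptors DAP12 (TYROBP) and FcR gamma, and degrade what they take up in lysosomes. The conjunctiva normally holds resident macrophages and dendritic cells, and monocytes enter it during inflammation.

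As a group, these genes were higher in DED: 19 of 42 measured genes passed the test with a higher value and 0 with a lower one, while 23 did not pass. Over all probe sets, 4.41% passed with a higher value and 2.69% with a lower one, against 45.2% and 0.0% of these genes. The genes were chosen with earlier results of these data known, so the shares in this paragraph describe the set and are no independent test of it. At an unadjusted p under 0.05 from limma, 31 of the 42 genes were higher and 0 lower, and by one-way analysis of variance with the same adjustment 17 were higher and 0 lower. The share over all probe sets was not counted by either measure, nor for the unadjusted p of the lists below. The median log2 fold change was 0.35, beside -0.01 over all probe sets, and the values ranged from -0.14 for MARCO to 1.66 for ACOD1. A positive log2 fold change was seen in 39 of the 42 genes, and in 46.1% of all probe sets. At a fold change of at least 1.5, 16 of the 42 (38.1%) passed, where the figure over all probe sets was 1.93%. At a fold change of at least 2, 4 genes passed (MPEG1, ACOD1, PTPRC and EVI2B), or 9.52% against 0.492%. The 3 DED arrays lay above the 3 naive arrays in 32 genes (76.2%, and 13.4% of all probe sets) and below them in 0 (14.5% of all probe sets), and the groups overlapped in the other 10.

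**Figure D1:**
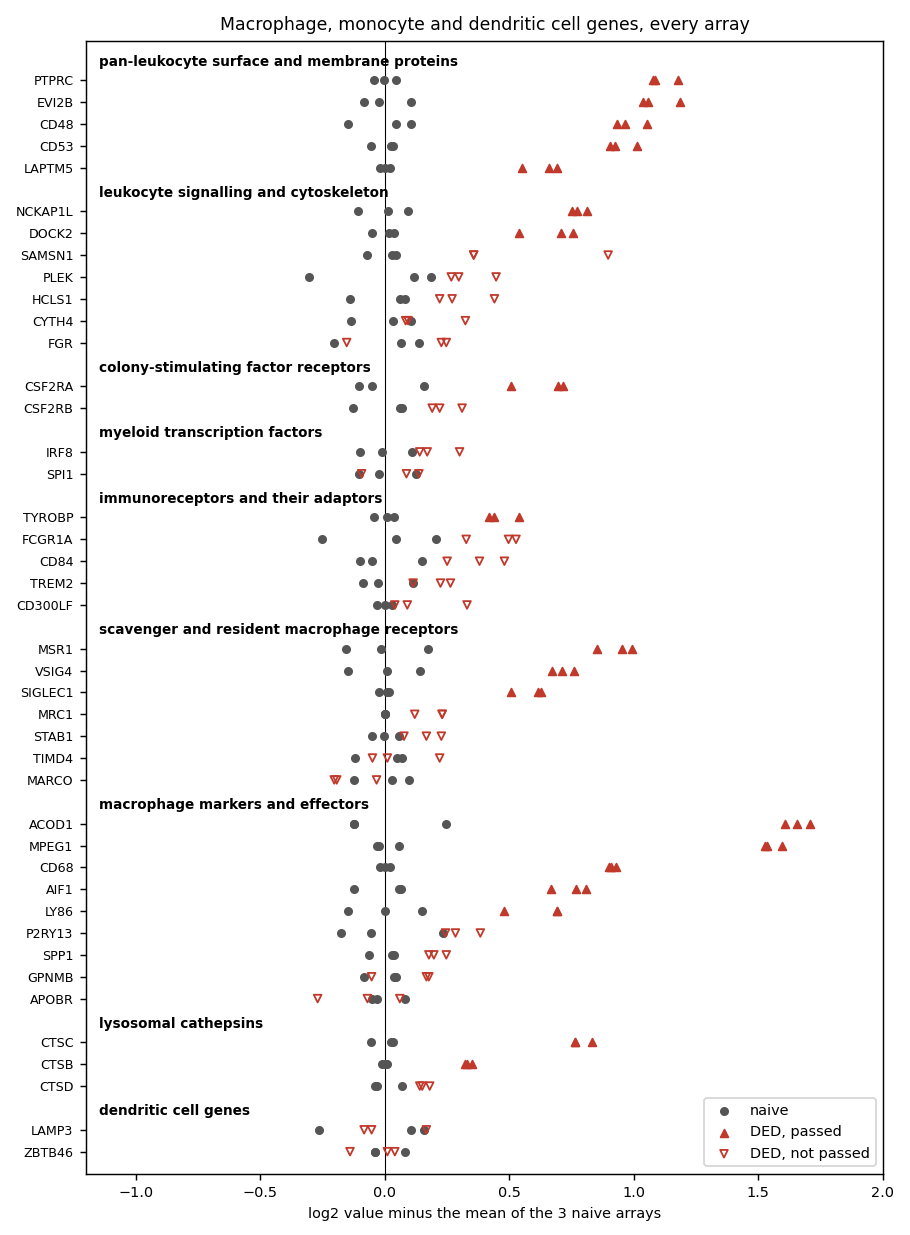
Log2 value of each of 42 genes on every array, as the difference from the mean of the 3 naive arrays (horizontal axis), by role (rows). Grey circles are naive arrays, filled triangles are DED arrays of genes that passed the test and open triangles are DED arrays of genes that did not; ACOD1 and MPEG1 lie farthest to the right, while ZBTB46, LAMP3, SPI1 and MARCO show DED and naive arrays intermingled.

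Proteins found on nearly all leukocytes rose together. PTPRC, the leukocyte antigen CD45, was at 6.61, 6.52 and 6.56 on the naive arrays and at 7.64, 7.65 and 7.74 on the DED arrays. EVI2B, a membrane glycoprotein of blood cells, was at 6.87, 6.81 and 7.0 in naive and 8.08, 7.95 and 7.93 in DED conjunctiva. The lowest DED value of each thus lay above the highest naive value by 1.03 and 0.93 on the log2 scale. CD48, an adhesion ligand of lymphocytes and monocytes, gave 7.9, 7.71 and 7.96 in naive and 8.91, 8.82 and 8.79 in DED. CD53, a tetraspanin, gave 7.01, 6.93 and 7.02 against 7.91, 7.89 and 8.0. No array overlapped with the other group in these genes or in LAPTM5, a lysosomal membrane protein of leukocytes. The log2 fold changes were 1.11 for PTPRC (standard error 0.06, adjusted p = 0.000336, limma), 1.09 for EVI2B (0.08, adjusted p = 0.000769), 0.98 for CD48 (0.08, adjusted p = 0.0015), 0.95 for CD53 (0.06, adjusted p = 0.000596) and 0.63 for LAPTM5 (0.06, adjusted p = 0.00247). All 5 measured members of this group passed, with a median of 0.98. They are expressed by lymphocytes and granulocytes as well as by macrophages.

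Among the intracellular signalling and cytoskeletal proteins of leukocytes, 2 of 7 measured genes rose and 5 did not pass. NCKAP1L, the haematopoietic subunit of the WAVE complex that drives actin assembly, was at 6.93, 7.01 and 6.81 in naive and 7.69, 7.67 and 7.73 in DED conjunctiva. DOCK2, an activator of RAC that drives leukocyte migration, was at 6.47, 6.49 and 6.4 against 7.16, 6.99 and 7.21. Both separated the groups completely, with log2 fold changes of 0.78 (standard error 0.07, adjusted p = 0.00183) and 0.67 (0.08, adjusted p = 0.00437) from limma.

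The other 5 changed less or varied more. SAMSN1, an adaptor that restrains B-cell signalling, was at 4.04, 3.92 and 4.02 in naive and 4.35, 4.35 and 4.89 in DED conjunctiva. Here DED replicate 3 stood above the other DED arrays, the log2 fold change was 0.54 (standard error 0.15, adjusted p = 0.0965), and this was the only one of the 42 genes among the dimmest 30% of probe sets, those at or below a mean log2 value of 5.06. The second, dimmer probe set of SAMSN1 gave 0.2 on the log2 scale (standard error 0.16, adjusted p = 0.521). PLEK, a substrate of protein kinase C in platelets and leukocytes, was at 5.93, 5.51 and 6.0 against 6.26, 6.08 and 6.11. HCLS1, which binds cortical actin, was at 7.14, 7.16 and 6.94 against 7.52, 7.35 and 7.3. In both the DED arrays lay above the naive arrays, but PLEK, at 0.34 on the log2 scale (adjusted p = 0.218), and HCLS1, at 0.31 (adjusted p = 0.105), did not pass. CYTH4, an exchange factor for ARF proteins, was at 7.15, 7.08 and 6.91 in naive and 7.14, 7.13 and 7.37 in DED (log2 fold change 0.17, adjusted p = 0.379). FGR, a SRC-family kinase of myeloid cells, was at 6.62, 6.28 and 6.55 against 6.71, 6.73 and 6.33 (log2 fold change 0.11, adjusted p = 0.718). The groups overlapped in these last 2 genes.

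Of the receptors for granulocyte-macrophage colony-stimulating factor, the ligand-binding alpha chain rose. CSF2RA was at 6.46, 6.2 and 6.25 on the naive arrays and 7.0, 6.81 and 7.02 on the DED arrays, a change of 0.64 on the log2 scale (standard error 0.10, adjusted p = 0.012, limma). It lost its call without naive replicate 3 or without DED replicate 1, with adjusted p of up to 0.0559. The signal-transducing beta chain CSF2RB, shared with the receptors for IL-3 and IL-5, was at 6.69, 6.49 and 6.68 in naive and 6.93, 6.84 and 6.81 in DED. Its groups did not overlap, but the change of 0.24 on the log2 scale (standard error 0.08, adjusted p = 0.132) did not pass.

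The growth factors themselves were considered next. Of 6 listed ligands of myeloid growth, 4 were measured and 1 rose, with a median log2 fold change at 0.0. CSF3, the granulocyte colony-stimulating factor, rose by 0.45 on the log2 scale (standard error 0.06, adjusted p = 0.00948), whereas CSF1, which sustains macrophages, was at -0.2 (adjusted p = 0.187), IL34, the other ligand of the CSF1 receptor, at 0.06 (adjusted p = 0.758) and CSF2 at -0.06 (adjusted p = 0.816).

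Neither of the measured transcription factors of the myeloid lineage passed the test, although IRF8 had an unadjusted p under 0.05. SPI1 was at 6.67, 6.82 and 6.59 in naive and 6.78, 6.6 and 6.83 in DED conjunctiva. IRF8, which directs monocytes and dendritic cells and also acts in B cells, was at 7.0, 6.91 and 7.12 against 7.18, 7.15 and 7.31. For SPI1 the groups were intermingled, with a log2 fold change of 0.04 and a 95% confidence interval from -0.18 to 0.26 (adjusted p = 0.835). For IRF8 the lowest DED value exceeded the highest naive value by 0.03, and the log2 fold change was 0.2 (interval 0.01 to 0.39, adjusted p = 0.202).

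TYROBP, the DAP12 adaptor whose ITAM motif carries the signal of many myeloid receptors, was at 9.0, 8.95 and 9.03 in naive and 9.53, 9.41 and 9.43 in DED. It was the only one of 5 measured immunoreceptors and adaptors to pass, and was 1.38-fold higher (log2 0.46, standard error 0.06, adjusted p = 0.00758). Surface receptors were the other 4, and none of them passed. FCGR1A, the high-affinity receptor for IgG, was at 5.12, 5.58 and 5.42 against 5.9, 5.87 and 5.7. CD84, a receptor of the SLAM family, was at 5.16, 4.91 and 4.96 against 5.26, 5.49 and 5.39. DED and naive arrays did not overlap in either, and the log2 fold changes were 0.45 (standard error 0.13, adjusted p = 0.0942) and 0.37 (0.09, adjusted p = 0.0722). TREM2, a lipid-sensing receptor that signals through TYROBP, was at 7.37, 7.43 and 7.57 in naive and 7.68, 7.72 and 7.57 in DED, where the lowest DED value equalled the highest naive one (log2 fold change 0.2, adjusted p = 0.197). CD300LF, an inhibitory receptor of myeloid cells, was at 5.54, 5.6 and 5.57 against 5.66, 5.9 and 5.61, a separation of 0.01 (log2 fold change 0.15, adjusted p = 0.369).

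A separate list of kinases, adaptors and other genes, drawn up as downstream of TYROBP and FcR gamma, rose in part. Of its 15 measured genes 6 (40.0%) were higher and 0 lower, and the median was 0.22. On the log2 scale the adaptor FYB1 rose by 0.85 (adjusted p = 0.0043), the tyrosine kinase BTK by 0.75 (adjusted p = 0.00197) and the phosphoinositide kinase PIK3CG by 0.75 (adjusted p = 0.00925). These are also used by lymphocyte or granulocyte receptors. The other 9 did not pass, among them the kinases PIK3CD, at 0.2 (adjusted p = 0.399), and LYN, at -0.01 (adjusted p = 0.963). A list of regulators of actin in leukocytes, which work beside DOCK2 and NCKAP1L, also held the transcription factor IKZF1. It gave 6 of 12 higher and 0 lower, with a median of 0.35. The 3 with the highest values were ARHGAP15 at 0.78 (adjusted p = 0.0156), RAC2, the GTPase that DOCK2 activates, at 0.67 (adjusted p = 0.00331) and CORO1A at 0.52 (adjusted p = 0.0231).

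Among scavenger receptors and receptors of resident macrophages, log2 fold changes ran from -0.14 to 0.93, and 3 of 7 measured genes passed the test. MSR1, the class A scavenger receptor for modified lipoproteins, was at 6.12, 6.45 and 6.26 in naive and 7.23, 7.13 and 7.27 in DED. VSIG4, a complement receptor of tissue macrophages, was at 8.56, 8.27 and 8.43 against 9.18, 9.09 and 9.13. SIGLEC1, the sialic acid receptor sialoadhesin, was at 5.66, 5.62 and 5.65 against 6.27, 6.26 and 6.15. In all 3 the DED values stood clear of the naive values, by at least 0.49. The log2 fold changes were 0.93 for MSR1 (standard error 0.10, adjusted p = 0.00301), 0.71 for VSIG4 (0.09, adjusted p = 0.0053) and 0.58 for SIGLEC1 (0.06, adjusted p = 0.00298).

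The remaining 4 of the 7 measured receptors did not pass. MRC1, the mannose receptor CD206, was at 8.26 on each naive array and at 8.49, 8.49 and 8.38 in DED, so that the groups were separate but the log2 fold change was only 0.19 (standard error 0.06, adjusted p = 0.112). STAB1, a scavenger receptor of macrophages and of sinusoidal and lymphatic endothelium, was at 7.27, 7.21 and 7.16 against 7.44, 7.29 and 7.38, a separation of 0.02 (log2 fold change 0.16, adjusted p = 0.233). TIMD4, a phosphatidylserine receptor for apoptotic cells, was at 5.58, 5.6 and 5.41 against 5.75, 5.54 and 5.48 (log2 fold change 0.06, adjusted p = 0.77). MARCO, a second class A scavenger receptor, was at 5.71, 5.93 and 5.86 against 5.63, 5.8 and 5.64. TIMD4 and MARCO overlapped between the groups, and MARCO had the lowest log2 fold change of all 42 genes, -0.14 (interval -0.34 to 0.06, adjusted p = 0.38).

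General macrophage markers and effectors held the largest changes among the 42 genes, those of ACOD1 and MPEG1. Of 9 measured genes in this role 5 passed, with a median log2 fold change of 0.62, below the 0.98 of the pan-leukocyte genes. MPEG1, the pore-forming protein perforin-2 of phagosomes, was at 7.57, 7.66 and 7.58 in naive and 9.2, 9.13 and 9.14 in DED conjunctiva. ACOD1, which makes itaconate from a citric acid cycle intermediate in activated macrophages, was at 5.28, 4.91 and 4.91 against 6.74, 6.69 and 6.64. The gap between the groups was 1.47 for MPEG1 and 1.36 for ACOD1, several times the spread within either group. CD68, a lysosomal glycoprotein used to identify macrophages, was at 7.43, 7.45 and 7.47 against 8.38, 8.35 and 8.36. AIF1, the calcium-binding protein IBA1 of macrophages and microglia, was at 6.99, 6.98 and 6.8 against 7.69, 7.59 and 7.73. Both also separated the groups on every array. MPEG1 was 2.93-fold higher (log2 1.55, standard error 0.06, adjusted p = 6.86e-05), ACOD1 3.15-fold (1.66, 0.11, adjusted p = 0.000648), CD68 1.88-fold (0.91, 0.05, adjusted p = 0.000398) and AIF1 1.68-fold (0.75, 0.08, adjusted p = 0.00307), all from limma. LY86 (MD-1), the partner of the Toll-like receptor homologue RP105, rose 1.54-fold (log2 0.62, standard error 0.10, adjusted p = 0.0162), with a call that was lost without naive replicate 3, DED replicate 1 or DED replicate 2 (adjusted p of up to 0.0686).

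**Figure D2:**
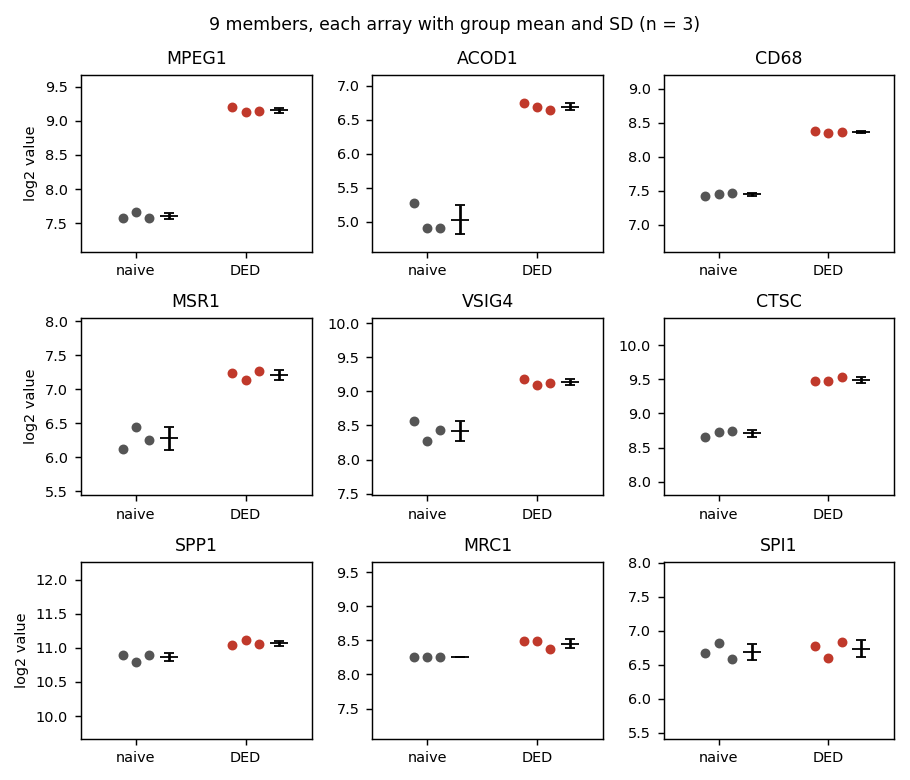
Log2 value (vertical axis, the same span of log2 units in every panel) of 9 genes on the 3 naive (grey) and 3 DED (red) arrays, with the mean and SD of each group in black. MPEG1, ACOD1, CD68, MSR1, VSIG4 and CTSC show DED arrays clear of naive arrays, SPP1 and MRC1 a small separation, and SPI1 overlap.

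Other genes tied to macrophage activation or lipid handling did not pass the test. SPP1 (osteopontin), a secreted matrix protein also made by epithelia, was at 10.89, 10.8 and 10.9 in naive and 11.04, 11.11 and 11.06 in DED. P2RY13, a receptor for ADP, was at 5.56, 5.15 and 5.27 against 5.61, 5.71 and 5.57. Neither overlapped, but their log2 fold changes of 0.21 (standard error 0.06, adjusted p = 0.0975) and 0.3 (0.11, adjusted p = 0.181) did not pass. GPNMB, a glycoprotein of lipid-laden macrophages and of melanocytes, was at 6.82, 6.95 and 6.94 against 7.07, 7.08 and 6.85 (log2 fold change 0.1, adjusted p = 0.568). APOBR, a receptor for apolipoprotein B of remnant lipoproteins, was at 6.47, 6.36 and 6.34 against 6.12, 6.32 and 6.45 (log2 fold change -0.09, adjusted p = 0.636). The groups overlapped in these 2. Beside GPNMB, the melanocyte markers that passed were all lower in DED, 3 of 8 measured, with DCT at a log2 fold change of -1.63 (adjusted p = 0.000965), TYRP1 at -1.42 (adjusted p = 0.00104) and TYR at -0.59 (adjusted p = 0.00823). The other 5 did not pass: PMEL was at -0.18, OCA2 at 0.0, SOX10 at 0.06, MLANA at 0.14 and SLC45A2 at 0.18. SOX10 and SLC45A2 were among the 30% dimmest probe sets. The part of melanocytes in the value of GPNMB was not tested.

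Of the lysosomal cathepsins, CTSC and CTSB rose. CTSC (dipeptidyl peptidase 1), which activates the serine proteases of granules, was at 8.65, 8.73 and 8.74 in naive and 9.47, 9.47 and 9.54 in DED. CTSB, a cysteine protease of most cell types, was at 10.66, 10.65 and 10.67 against 10.98, 11.01 and 10.99. The replicates of each gene lay close together, and the log2 fold changes were 0.79 (standard error 0.06, adjusted p = 0.000965) and 0.33 (0.05, adjusted p = 0.0136). The call of CTSB was lost when any 1 array other than naive replicate 3 was left out (adjusted p of up to 0.0584), with log2 fold changes of 0.33 to 0.34. CTSD, the aspartic protease, was at 7.53, 7.52 and 7.63 against 7.74, 7.71 and 7.7, without overlap, and its log2 fold change of 0.16 (adjusted p = 0.184) did not pass. Among 22 measured genes of other lysosomal proteins, 7 were higher and 0 lower, with a median of 0.15. CTSS, the cathepsin that trims the invariant chain in antigen-presenting cells, rose by 0.77 on the log2 scale (adjusted p = 0.000903), LGMN (legumain) by 0.62 (adjusted p = 0.00247) and CTSK, a collagen-degrading cathepsin, by 0.48 (adjusted p = 0.00593). TFEB, the factor that drives lysosomal genes, had a fold change at 0.0 on that scale (adjusted p = 0.985), and the membrane proteins LAMP1 and LAMP2 had 0.13 (adjusted p = 0.319) and 0.0 (adjusted p = 1.0).

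Neither measured dendritic cell gene passed the test, and 0 had an unadjusted p under 0.05 from limma. ZBTB46, a transcription factor of conventional dendritic cells that endothelium also expresses, was at 5.63, 5.75 and 5.63 in naive and 5.53, 5.71 and 5.68 in DED. LAMP3 (DC-LAMP), a marker of mature dendritic cells, was at 5.68, 5.73 and 5.31 against 5.49, 5.74 and 5.52. The groups overlapped in both, with log2 fold changes of -0.03 (interval -0.21 to 0.15, adjusted p = 0.862) and 0.01 (interval -0.3 to 0.32, adjusted p = 0.976). Only these 2 of 5 listed dendritic cell genes were measured. Of 13 further dendritic cell genes, 1 rose: CD209 (DC-SIGN), which macrophages express as well, rose by 0.56 on the log2 scale (adjusted p = 0.00438). The median log2 fold change of these 13 was 0.06, and 3 had an unadjusted p under 0.05 from limma. The other two were CD40 and CD80, which bind ligands on T cells and did not pass. On the log2 scale CD40 differed by 0.25 (adjusted p = 0.0863) and CD80 by 0.19 (adjusted p = 0.197), both with every DED array above every naive array. Groups overlapped in the remaining 10. By log2 fold change, XCR1, a receptor of cross-presenting dendritic cells, was at 0.15 (adjusted p = 0.632), CD207 (langerin) at 0.1 (adjusted p = 0.429), CCR7, which guides mature dendritic cells to lymph nodes, at -0.13 (adjusted p = 0.421), and CD83 at 0.11 (adjusted p = 0.718).

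Monocyte and macrophage genes outside the 42 gave 13 of 22 measured higher and 0 lower, with a median of 0.34. The macrophage elastase MMP12 rose by 1.56 on the log2 scale (adjusted p = 0.000398), CD14, the lipopolysaccharide co-receptor, by 1.13 (adjusted p = 0.000284) and CLEC7A (dectin-1), a receptor for beta-glucan, by 1.12 (adjusted p = 0.00125). C1QC, C1QA and C1QB, the chains of C1q that tissue macrophages make, rose by 0.64, 0.55 and 0.38 (adjusted p = 0.00138, 0.0243 and 0.0203). CCR2, the receptor that brings monocytes to sites of inflammation, had a log2 fold change at 0.02 (adjusted p = 0.926), and MERTK, a receptor for apoptotic cells, one at -0.05 (adjusted p = 0.677).

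Each gene was then set against 5 pan-leukocyte genes. On each array the mean of PTPRC, CD48, CD53, LAPTM5 and EVI2B, here called the leukocyte mean, was subtracted from every probe set. This mean was 7.33, 7.24 and 7.35 on the naive arrays and 8.26, 8.24 and 8.27 on the DED arrays, a change of 0.95 (1.94-fold). Of the 37 other genes, 2 changed more (5.41%), 30 changed less (81.1%) and 5 did not pass. Over all probe sets 0.257% changed more and 98% changed less, so a gene with no change at all counts as less here, and adjustment over all probe sets barely raises p. ACOD1 exceeded the leukocyte mean by 0.7 on the log2 scale (standard error 0.11, adjusted p = 0.000407) and MPEG1 by 0.6 (0.08, adjusted p = 0.000153). These same 2 genes exceeded it under each of 17 alternatives, with PTPRC alone as the reference among them. The reference genes were chosen with earlier results of these data known, and PTPRC, itself at 1.11, was the only other reference tried. The separate list of leukocyte actin regulators and IKZF1 changed by -0.07 to 0.78 with a median of 0.35. A reference with smaller changes was not tried, and the counts of more and less depend on the reference.

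MSR1 differed from the leukocyte mean by -0.02 (95% confidence interval -0.29 to 0.25), CD68 by -0.04 (-0.2 to 0.12), CTSC by -0.17 (-0.34 to 0.0), NCKAP1L by -0.17 (-0.39 to 0.04) and AIF1 by -0.21 (-0.43 to 0.01), and none of these passed. Against PTPRC alone, CD68, CTSC, NCKAP1L and AIF1 changed less, CD68 with adjusted p = 0.0313. Genes that rose in DED but less than the leukocyte mean included TYROBP, at -0.49 (standard error 0.07, adjusted p = 0.000203), SIGLEC1, at -0.37 (0.07, adjusted p = 0.00138), and VSIG4, at -0.24 (0.08, adjusted p = 0.018), which lost this call without naive replicate 1, DED replicate 2 or DED replicate 3 (adjusted p of up to 0.0616). At the far end, MARCO was at -1.1 (standard error 0.10, adjusted p = 2.74e-05), ZBTB46 at -0.98 (0.09, adjusted p = 3.03e-05) and SPI1 at -0.91 (0.11, adjusted p = 9.05e-05). The reference genes differed among themselves: LAPTM5 was at -0.32 (interval -0.5 to -0.14) and PTPRC at 0.16 (0.0 to 0.32) relative to their common mean. Probe sets can differ in how fully they register a change of transcript, and that part was not tested.

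**Figure D3:**
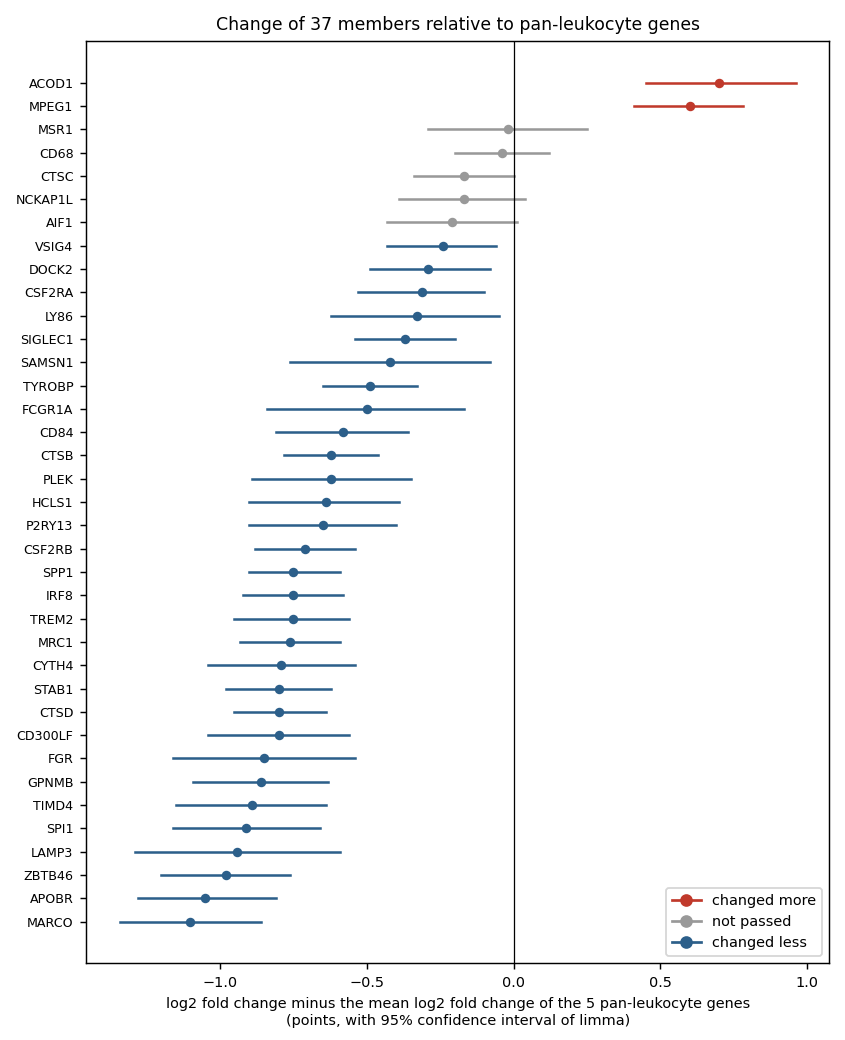
Log2 fold change of 37 genes minus the mean log2 fold change of the 5 pan-leukocyte genes (horizontal axis), with the 95% confidence interval of limma. ACOD1 and MPEG1 lie right of 0, the intervals of MSR1, CD68, CTSC, NCKAP1L and AIF1 reach 0, and the other 30 genes lie left of it.

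Markers of other blood cells moved on the same arrays. Of 11 measured neutrophil markers 7 were higher and 0 lower, with a median log2 fold change of 0.71, and S100A8, CXCR1 and CXCR2 rose by 1.89, 1.37 and 1.2 (adjusted p = 0.000198, 0.000284 and 0.00693). The summed signal of that list, after converting log2 values to a linear scale, was 809 to 892 on naive and 1600 to 1640 on DED arrays. S100A9 made up 25.7% to 27.6% of that sum, and without S100A9 it was 587 to 663 in naive and 1160 to 1190 in DED. The other 4 neutrophil markers did not pass. MPO, the granule peroxidase that neutrophil precursors transcribe, had a log2 fold change at 0.0 (adjusted p = 0.984). FPR1 was at 0.17 (adjusted p = 0.26), MMP8 at 0.03 (adjusted p = 0.946) and CEBPE at 0.02 (adjusted p = 0.944). T-cell markers gave 3 of 12 higher and 0 lower, with CD3G up by 0.73 (adjusted p = 0.0074), CD4 by 0.71 (adjusted p = 0.0163) and LCK by 0.34 (adjusted p = 0.0409), and a summed signal of 651 to 674 against 773 to 830. The other 9 did not pass, with CD2 at 0.32 (adjusted p = 0.237), CD6 at 0.13 (adjusted p = 0.445) and CD3E at 0.0 (adjusted p = 0.989), and the median of the 12 was 0.22. B and plasma cell markers gave 4 of 9 higher and 0 lower, led by MS4A1 (CD20), up by 1.0 (adjusted p = 0.00253), CD79B by 0.72 (adjusted p = 0.00247) and MZB1 by 0.49 (adjusted p = 0.00761). JCHAIN, the joining chain of secreted antibodies, did not pass, at -0.22 on the log2 scale (adjusted p = 0.0673) with every DED array below every naive array. The summed signal of all 9 was 7930 to 8120 in naive and 7100 to 7370 in DED, of which JCHAIN made up 87.7% to 92.2%, and without JCHAIN it was 630.0 to 644 in naive and 850.0 to 880.0 in DED.

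None of 3 measured NK cell markers and none of 6 mast cell markers passed the test from limma, and 2 of each list had an unadjusted p under 0.05. In each list these 2 lay on opposite sides of 0. Of the NK cell markers, EOMES had a log2 fold change at 0.21 (adjusted p = 0.166) and NKG7 one at -0.14 (adjusted p = 0.185), without overlap between groups in either. The mast cell markers HPGDS and KIT, the stem cell factor receptor, were at 0.44 (adjusted p = 0.139), with overlap, and -0.35 (adjusted p = 0.0942), without. EOMES and HPGDS were among the 30% dimmest probe sets. Among 8 red cell markers, HBB2, a beta-globin, and ALAS2, the erythroid enzyme of haem synthesis, rose by 3.08 (adjusted p = 1.2e-05) and 2.68 (adjusted p = 1.56e-05), the other 6 did not pass, and the summed signal was 638 to 676 against 3580 to 3680. HBB2 made up 54.4% to 85.6% of that sum, and without HBB2 the red cell markers gave 278 to 291 in naive and 522 to 550 in DED. That remainder still held ALAS2. The log2 fold changes of the 6 red cell markers that did not pass lay between -0.1 for AHSP and 0.23 for SLC4A1. The part of these cells in the values of PTPRC, CD48, CD53, EVI2B and other shared leukocyte genes was not tested.

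**Figure D4:**
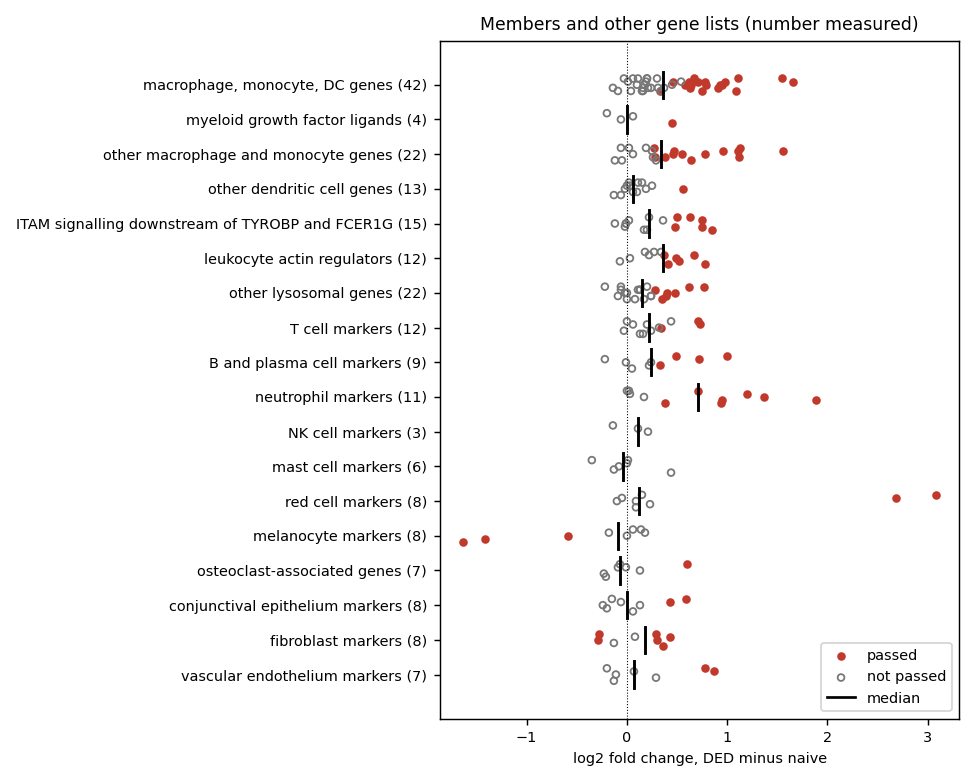
Log2 fold change (DED minus naive, horizontal axis) of each measured gene in the macrophage, monocyte and dendritic cell set and in 17 other gene lists, with the number measured in brackets. Filled points passed the test in either direction, open points did not and the bar is the median; medians are 0.35 for the 42 genes, 0.34 for other macrophage and monocyte genes, 0.06 for other dendritic cell genes and 0.71 for neutrophil markers.

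Within groups, the 42 genes varied little. Their SD over 3 arrays had a median of 0.1 in naive and 0.08 in DED conjunctiva, and over all probe sets the median SD was 0.1 in each group. The most variable were PLEK in naive (SD 0.27) and SAMSN1 in DED (SD 0.31). The mean log2 value of the 42 genes was 6.85, 6.81 and 6.81 on the naive arrays and 7.31, 7.3 and 7.3 on the DED arrays, so the increase was of like size on each DED array.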

How the data were processed

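The authors ran Robust Multi-chip Analysis in the Transcriptome Analysis Console (version not given in the sources used here) on scans of Rabbit Gene 1.0 ST arrays and deposited log2 values to 2 decimals. Background correction, quantile normalization and summary of probes are part of this step, and a shift shared by all transcripts is removed by it. Gene symbols came from the platform annotation: of 23364 probe sets, 15795 carried a single symbol, 397 carried several and 7172 none. By Entrez identifier, 39 of the 42 measured genes were found in the RefSeq table of assembly mOryCun1.1.

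The groups were compared, DED minus naive, in limma 3.58.1 (lmFit, eBayes) under R version 4.3.3 without covariates. P-values were adjusted over all 23364 probe sets by Benjamini-Hochberg. Standard errors and 95% confidence intervals are limma's. The number of arrays, 3 in each group, limits the precision, and the spread behind each p-value is that between pools of animals. The labels do not pair the arrays: deviations of same-numbered arrays from their group means correlated at -0.0151, 0.0238 and -0.0565. In simulated data with 200 changed probe sets, the fit recovered 39.4% of changes of log2 0.5 and 74.4% of log2 1. In the real comparison 1030 probe sets passed with a higher and 629 with a lower value. The Benjamini-Hochberg cut-off depends on how many probe sets change, so these rates do not give the sensitivity of the reported test.

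Genes, roles and lists were chosen with earlier results of these data known. Values on every array are given for up to 4 passing genes with the largest changes per role and for every gene that did not pass; from each other list up to 3 passing genes were named, or the largest if none passed, and others named from those lists were chosen after their values were seen. Python 3.11.15, pandas 2.3.3, numpy 2.4.6, scipy 1.17.1 and matplotlib 3.10.9 were used. Alternatives were other variance models, one-way analysis of variance, filters, normalizations, array weights, a replicate block and leaving out each array. No sequences were used here.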

Additional observations from a re-analysis of the deposited data

How the results depend on the processing

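The number of genes higher in DED was 19 and stayed between 16 and 23 under the 16 alternatives, with 0 lower under each. It was 16 to 18 with any 1 array left out, 17 by one-way analysis of variance, 22 without the 30% dimmest probe sets and 23 with an intensity trend. The median log2 fold change stayed between 0.34 and 0.41. Of the 19 genes, 16 passed under every alternative; CTSB, LY86 and CSF2RA did not. With the replicate number as a block, 17 were higher, CTSB and LY86 losing their call; same-numbered arrays did not deviate together, and no other call among the 42 changed with the block. Beyond the 19, CD84, FCGR1A, HCLS1, MRC1 and SPP1 passed with an intensity trend or without the dimmest probe sets. No gene that passed changed direction. Relative to the pan-leukocyte genes, 2 changed more under every alternative and 28 to 34 less; CTSC, AIF1, NCKAP1L and CD68 joined those that changed less under some alternatives, and SAMSN1, LY86 and VSIG4 left them under others.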

Other observations

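Markers of the tissue that surrounds these leukocytes did not move one way. Of 8 measured fibroblast markers 4 were higher in DED and 2 lower, with log2 fold changes from limma of 0.43 for FBN1 (fibrillin-1; adjusted p = 0.00758), 0.36 for LUM (lumican; adjusted p = 0.0181) and 0.3 for the collagen chain COL3A1 (adjusted p = 0.0242). The 2 lower markers were DPT (dermatopontin), at -0.29 (adjusted p = 0.0271), and the growth factor receptor PDGFRA, at -0.28 (adjusted p = 0.0421). Of 7 vascular endothelium markers 2 rose, VWF (von Willebrand factor), up by 0.87 (adjusted p = 0.000596), and PECAM1 (CD31), which monocytes also carry, up by 0.78 (adjusted p = 0.00386), while KDR, CLDN5, TIE1, TEK and EMCN did not pass. Of 8 conjunctival epithelium markers 2 rose, the keratins KRT5 and KRT4, up by 0.59 (adjusted p = 0.00496) and 0.43 (adjusted p = 0.0145), and the 8 had a median change at 0.0 on the log2 scale. In 4 of the other 6, none of which passed, every DED array lay below every naive array: the log2 fold changes were -0.24 for KLF5 (adjusted p = 0.0676), -0.2 for EPCAM (adjusted p = 0.0971), -0.15 for PAX6 (adjusted p = 0.188) and -0.06 for ELF3 (adjusted p = 0.59). KRT19, at 0.13 (adjusted p = 0.229), had every DED array above, as had KRT5 and KRT4, and TP63, at 0.06 (adjusted p = 0.588), overlapped. Over all probe sets, the DED arrays lay wholly below in 14.5% and wholly above in 13.4%. Of 7 genes associated with osteoclasts, the multinucleated relatives of macrophages, 1 rose. This was ATP6V0D2, a subunit of the vacuolar proton pump, up by 0.6 on the log2 scale (adjusted p = 0.00375). TNFRSF11A was at -0.23 (adjusted p = 0.256) and NFATC1, a transcription factor of osteoclasts, at -0.21 (adjusted p = 0.0952). In both, every DED array lay below every naive array, whereas CALCR, at 0.13 (adjusted p = 0.359), had every DED array above. The fusion genes DCSTAMP and OCSTAMP had log2 fold changes at -0.07 (adjusted p = 0.715) and -0.09 (adjusted p = 0.569). CALCR and DCSTAMP were among the 30% dimmest probe sets.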
